A study of Homo sapiens with 4 samples.

Results

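Transcripts of the NRF2 system were followed in MDA-LM2 cells after transfection with siRNA against the transcription factor SOX4. The 10 genes considered encode NRF2 (NFE2L2) and its relative NFE2L1, the inhibitor KEAP1 and its ligase partner CUL3, the competing repressor BACH1, the small MAF partners MAFF, MAFG and MAFK, the autophagy receptor SQSTM1 and NQO1, a standard NRF2 target gene. They were chosen by gene name with the siSOX4 minus siControl differences of these same arrays already known, and every probe annotated to them was included. That gave 16 of the 47323 probes, for 9 of the 10 genes and of the 20046 genes named on the array. No listed probe was annotated to MAFK, which was therefore not analysed here. In all, 12 of the 16 probes, for 8 genes, were detected (detection p under 0.05) on at least 2 of the 4 arrays. The members' differences between siSOX4 and siControl cells are given as descriptions, with no test.

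MDA-LM2 is a subline of MDA-MB-231, a human breast cancer cell line, selected for metastasis to the lung. Cells were transfected with siRNA against SOX4 (2 arrays) or with control siRNA (2 arrays), both by lipofection, and total RNA was taken 48 h later for Illumina BeadChip arrays. The series used 2 siRNAs against SOX4, but the labels do not tie them to the numbered samples, and no label says whether same-group samples were grown as separate cultures. The spread between arrays may therefore be technical, and within the siSOX4 group it may also hold a difference between siRNAs.

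On each array 18609 to 20292 probes were detected. All 8 markers chosen for the line were detected on all 4 arrays, VIM and CD44 among them. Of 5 genes taken as low in it, ESR1, PGR and CDH1 were undetected, while ERBB2 and EPCAM were detected on all 4 arrays. Of the 6 immune and endothelial markers with a probe, PTPRC, CD3E, VWF and CDH5 were undetected, and CD14 and PECAM1 were dim but detected, with no probe of theirs above an intensity of 150.3. PECAM1 was higher on both siSOX4 arrays than on both controls (0.63 ± 0.25 log2 units) and CD14 overlapped (0.14 ± 0.28), and their part in the results was not tested. The SOX4 probe read 206 and 193 on the siSOX4 arrays against 253 and 239 on the siControl arrays, a difference of -0.35 ± 0.19 log2 units (limma adjusted p = 0.487). Over 11389 genes the log2 difference between the siSOX4 samples had an SD of 0.44, against 0.25 between the controls.

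NRF2 is a transcription factor that pairs with a small MAF protein on antioxidant response elements and switches on genes for glutathione and thioredoxin metabolism, detoxification and NADPH supply. In unstressed cells KEAP1 holds NRF2 and presents it to the CUL3 ubiquitin ligase, and oxidants or electrophiles disable KEAP1 so that NRF2 builds up. BACH1 occupies the same elements as a repressor, and SQSTM1, also called p62, can draw KEAP1 into autophagy. NRF2 is controlled mainly through breakdown of the protein, which arrays of RNA do not measure. In breast cancer lines BACH1 is known for promoting metastasis and NRF2 for drug resistance.

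The RefSeq promoter table held 9 of the members, each as 300 bases from 250 before to 50 after 1 annotated start, which need not be the start used in these cells. The windows were searched on both strands for TGACNNNGC, the core of the antioxidant response element, for TGACTCA, the AP-1 motif, which can overlap the first, and for AACAAAG, a SOX-type motif. KEAP1 was the only member whose window held a match. It had TGACNNNGC at 54 to 46 bases before the start in the gene's orientation and at 31 to 23 bases before it in the reverse orientation. Among all 35116 promoters of the same length, 13.3% held TGACNNNGC, 4.95% TGACTCA and 5.2% AACAAAG. The windows of KEAP1, of NFE2L2 and of SQSTM1, the latter being members whose signal was lower on both siSOX4 arrays, are shown 5′ to 3′ on the gene's strand from GRCh38.p14, with matches in capitals.
KEAP1 (chr19:10502722-10503021, minus strand): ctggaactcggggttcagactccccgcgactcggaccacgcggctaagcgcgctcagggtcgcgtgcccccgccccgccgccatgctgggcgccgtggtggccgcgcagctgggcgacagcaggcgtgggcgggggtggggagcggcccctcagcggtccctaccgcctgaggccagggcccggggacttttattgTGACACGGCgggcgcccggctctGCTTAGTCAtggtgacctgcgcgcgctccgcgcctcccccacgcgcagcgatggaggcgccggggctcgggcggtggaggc
NFE2L2 (chr2:177264678-177264977, minus strand): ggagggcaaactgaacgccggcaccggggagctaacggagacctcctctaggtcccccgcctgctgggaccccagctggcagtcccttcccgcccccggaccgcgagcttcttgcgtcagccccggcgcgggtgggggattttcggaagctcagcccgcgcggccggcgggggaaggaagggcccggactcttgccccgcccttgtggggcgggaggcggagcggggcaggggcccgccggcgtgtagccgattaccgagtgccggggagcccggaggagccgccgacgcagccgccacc
SQSTM1 (chr5:179820655-179820954, plus strand): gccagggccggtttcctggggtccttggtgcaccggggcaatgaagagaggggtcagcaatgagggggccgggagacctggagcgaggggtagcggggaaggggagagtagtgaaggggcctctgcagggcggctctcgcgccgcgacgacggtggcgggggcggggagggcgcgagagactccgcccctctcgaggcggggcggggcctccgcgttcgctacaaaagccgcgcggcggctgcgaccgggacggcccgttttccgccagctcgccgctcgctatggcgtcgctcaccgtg
The matches in the KEAP1 window are a description of its letters. No match in the other windows says only that these letters are not within them.

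Across the members, the signal of NFE2L2, NFE2L1, CUL3, MAFG and SQSTM1 was lower on both siSOX4 arrays than on both siControl arrays. KEAP1, MAFF and NQO1 overlapped between the groups, and no member was higher on both siSOX4 arrays. These 5 of 8 genes (6 of 12 probes) stand beside 25.1% of all 11389 genes (23.3% of kept probes) ordered the same way and 22.7% (22.2% of kept probes) ordered the opposite way. The differences of all 8 measured genes were below 0, as were 52.0% of those of all genes, and their median was -0.30 log2 units against -0.02 over all genes. Taken singly, siSOX4 sample 1 had a member median of -0.44 and siSOX4 sample 2 one of -0.20. In bulk RNA, fewer cells that express a gene and less RNA per cell cannot be told apart.

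**Figure D1:**
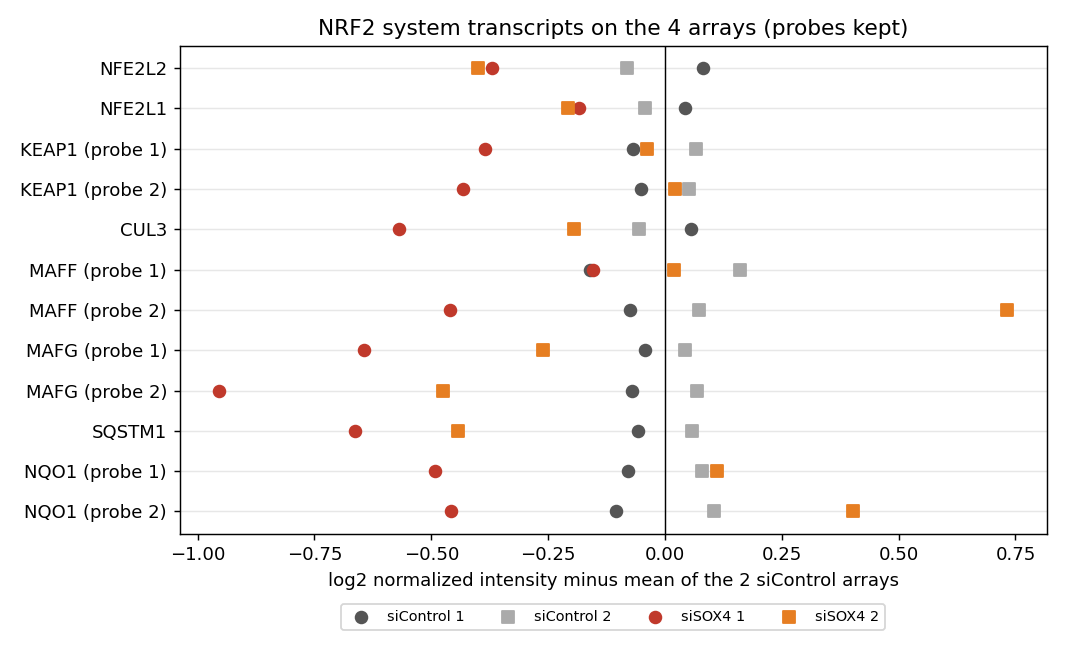
Normalized log2 intensity of the 12 kept member probes on each array, minus the mean of the siControl arrays; circles and squares are samples 1 and 2 of each group, with siControl in grey and siSOX4 in red and orange. Both siSOX4 points lie left of both siControl points for NFE2L2, NFE2L1, CUL3, both MAFG probes and SQSTM1, whereas NQO1 has siSOX4 sample 1 on the left and siSOX4 sample 2 on the right of both siControl points.

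NFE2L2, the gene of NRF2 itself, was measured by 1 probe (ILMN_1790909). Its intensity was 1281 and 1340 in siSOX4 samples 1 and 2 and 1901 and 1681 in siControl samples 1 and 2. The siSOX4 values were closer to each other than the controls were, and the groups did not overlap. After normalization the difference was -0.39 ± 0.15 log2 units (limma standard error, n = 2 arrays per group), or 1.31-fold lower, with -0.37 and -0.40 on the individual siSOX4 arrays. Of all genes, 11.9% had a lower difference. The authors' deposited table gives a siControl to siSOX4 ratio of 1.34 for this probe.

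NFE2L1 encodes a related factor that is held in the endoplasmic reticulum membrane and, once released, drives proteasome genes. Its probe (ILMN_1739450) read 530 and 544 on the siSOX4 arrays and 656 and 615 on the siControl arrays. After normalization the order of the arrays was that of NFE2L2 at a smaller distance, with a difference of -0.20 ± 0.16, and 27.7% of genes lay lower.

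KEAP1, the cysteine-rich sensor that binds NRF2, had 3 probes. The brightest (ILMN_2410772) read 544 and 708 on the siSOX4 arrays against 712 and 768 on the siControl arrays. The next (ILMN_2410771) read 431 and 597 against 595 and 623. On both probes siSOX4 sample 1 was the lowest array, while siSOX4 sample 2 lay within 0.04 log2 units of the control mean. Their differences were -0.21 ± 0.18 and -0.21 ± 0.20, with -0.38 and -0.04 on siSOX4 samples 1 and 2 for the brightest probe and -0.43 and 0.02 for the other. The third probe (ILMN_1711787), annotated to another KEAP1 transcript, was undetected on every array, at intensities of up to 59.0.

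CUL3, the scaffold of the ligase that marks NRF2 for breakdown, had 1 dim probe (ILMN_1653670), with 82.9 and 89.0 on the siSOX4 arrays and 104 and 96.1 on the siControl arrays. It was detected on siSOX4 sample 2 and on both controls, but not on siSOX4 sample 1. The difference of -0.38 ± 0.22 depended on the background correction and was -0.19 without it. By sample it was -0.57 and -0.19, so siSOX4 sample 1 lay farther from the controls than siSOX4 sample 2.

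SQSTM1 had the largest difference among the members represented by their brightest probe. Its protein carries ubiquitin-tagged cargo to autophagosomes and binds KEAP1, and the gene is itself a known NRF2 target. The probe (ILMN_1662618) read 7818 and 9619 on the siSOX4 arrays and 12935 and 13896 on the siControl arrays. The brighter siSOX4 array was well under the dimmer control, and the signals stayed far below the maximum on any array (31943 to 34571). The difference was -0.55 ± 0.13 log2 units, or 1.47-fold lower, with -0.66 and -0.44 on siSOX4 samples 1 and 2. Of all genes, 5.27% lay lower, and the authors' deposited table gives a siControl to siSOX4 ratio of 1.51.

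Among the small MAF genes, whose products lack an activation domain of their own and serve as DNA-binding partners of NRF2 and BACH1, MAFG and MAFF differed in pattern. For MAFG the brightest probe (ILMN_1692260) read 262 and 341 on the siSOX4 arrays and 396 and 412 on the siControl arrays. The MAFG probe annotated to another transcript (ILMN_2412761) read 208 and 277 against 357 and 384. Neither probe overlapped between groups, and both had siSOX4 sample 1 lowest. Their differences were -0.45 ± 0.20 and -0.71 ± 0.22, or 1.37-fold and 1.64-fold lower, and the authors' deposited table gives siControl to siSOX4 ratios of 1.31 and 1.496. The third MAFG probe (ILMN_1769103) was undetected, at 63.8 to 80.7.

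MAFF, the small MAF known for induction by stress and growth signals, overlapped between the groups. Its brightest probe (ILMN_1680139) read 229 and 262 on the siSOX4 arrays and 240 and 283 on the siControl arrays, a difference of -0.07 ± 0.20. The dim probe ILMN_2322375 read 82.8 and 121 against 95.6 and 96.6, so the siSOX4 samples were the lowest and the highest of the 4 arrays, with a difference of 0.14 ± 0.36. These probes differed in sign, and the third (ILMN_1700413) was undetected at 65.1 to 82.5.

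BACH1, which competes with NRF2 for small MAF partners, was undetected on all 4 arrays with its only annotated probe (ILMN_1681583). Its intensities were 51.0 and 54.5 on the siSOX4 arrays and 47.8 and 50.8 on the siControl arrays, below the lowest detected signal of 81.4 to 90.8 per array. No difference could be measured for it. The probe is annotated to 1 BACH1 transcript, and other transcripts were not analysed here.

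NQO1, the quinone reductase used as a readout of NRF2 activity, split the siSOX4 samples. The bright probe (ILMN_1720282) read 5956 and 9638 on siSOX4 samples 1 and 2 and 8764 and 9618 on siControl samples 1 and 2. The dim probe (ILMN_2354953) read 145 and 224 against 177 and 193. On both probes siSOX4 sample 1 was the lowest and siSOX4 sample 2 the highest of the 4 arrays. Relative to the control mean, the bright probe was at -0.49 and 0.11 and the dim probe at -0.46 and 0.40 in siSOX4 samples 1 and 2. The group differences were -0.19 ± 0.19 and -0.03 ± 0.29. NQO1 was not lower on both siSOX4 arrays, unlike NFE2L2, MAFG and SQSTM1.

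**Figure D2:**
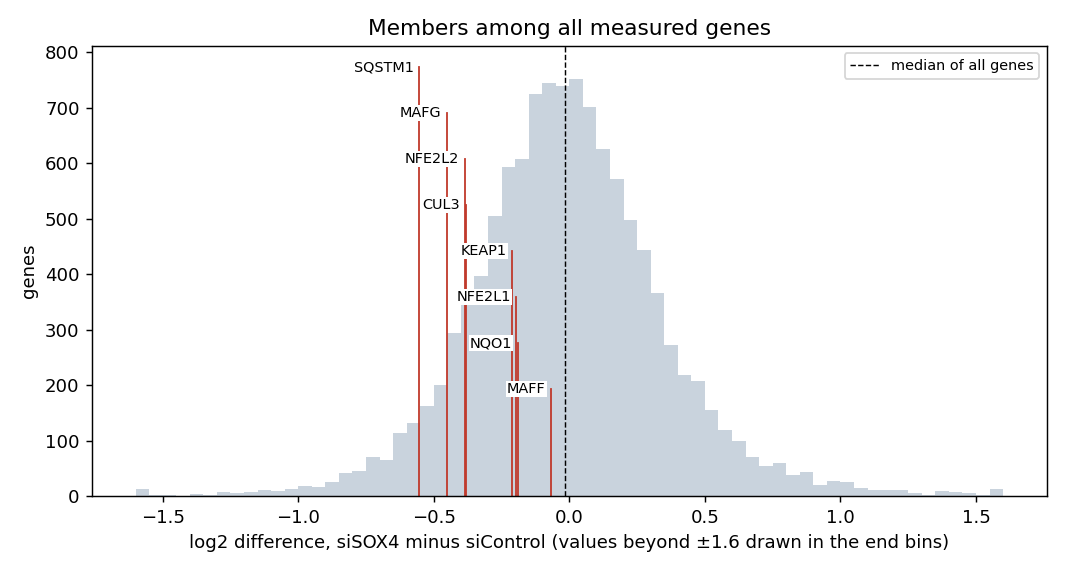
Histogram of the log2 difference, siSOX4 minus siControl, of 11389 genes each represented by its brightest kept probe, with red lines at the 8 measured members and a dashed line at the median of all genes. All 8 lines lie at or left of -0.07, from SQSTM1 at -0.55 to MAFF at -0.07, within the bulk of the distribution.

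The genes whose profiles over the 4 arrays were closest to NQO1, by Euclidean distance of log2 values centred on their mean, were TACO1 (0.018), FAM219A (0.035) and ZNF330 (0.037). All lay from -0.52 to -0.48 in siSOX4 sample 1 and from 0.12 to 0.13 in siSOX4 sample 2. Closest to NFE2L2 were IGF2R (0.021), MAPKAPK5 (0.024) and NOD1 (0.027), with differences of -0.38, -0.41 and -0.36. With 4 arrays, nearness says little beyond the order of the arrays.

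Genes reported as switched on by NRF2 were examined next, from a list of 66 that leaves out the members, of which 55 were measured. On both siSOX4 arrays 34 of the 55 were below both controls, 61.8% against 25.1% of all genes, and 5 were above both, 9.09% against 22.7%. The median difference was -0.37 log2 units, against -0.02 over all genes and 0.01 over 9 housekeeping genes, a value that was -0.08 with median scaling or the authors' processed values. Of the 9 housekeeping genes 2 (22.2%) were below both controls and 1 (11.1%) above. HPRT1 was at 0.39 ± 0.13, above both controls, and PPIA (0.34 ± 0.33) and GUSB (-0.21 ± 0.24) overlapped. YWHAZ was below both controls at -0.21 ± 0.13, and at -0.58 ± 0.28 on its dimmer probe. No target passed the test over all genes: 0 of 55 had an adjusted p under 0.05 in limma in either direction, as did 0% of the 11389 genes. At an unadjusted limma p under 0.05, 22 of the 55 targets were lower and 3 higher, where 7.39% of all genes were lower and 7.44% higher. The list was chosen with earlier results of these data known, so its counts are descriptions and no test of the list. Taken singly, siSOX4 sample 1 had a target median of -0.40 and siSOX4 sample 2 one of -0.20. With siSOX4 sample 1 or 2 left out, some targets passed the threshold, since a single siSOX4 array adds no spread of its own to the estimate. These targets went in both directions, with ABCC4 higher at 0.79 and 0.98 and AKR1B10 lower at -2.34 and -3.29. With siControl sample 1 or 2 left out, no target passed.

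Among redox genes of this list, SRXN1, which repairs over-oxidised peroxiredoxins, had the largest difference. It read 930 and 1178 on the siSOX4 arrays and 2586 and 2365 on the siControl arrays, -1.22 ± 0.16 log2 units (limma adjusted p = 0.0844). GCLC, the catalytic subunit of the enzyme that limits glutathione synthesis, read 290 and 415 against 722 and 690, -1.08 ± 0.21. Its modifier subunit GCLM, with 1349 and 1887 against 2266 and 2187, differed by -0.41 ± 0.17, and thioredoxin reductase TXNRD1, with 1744 and 2937 against 3309 and 3483, by -0.54 ± 0.22. In all of these, both siSOX4 arrays were below both controls on the brightest probe, although the dimmer GCLM probe overlapped. Glutathione reductase GSR was at -0.92 ± 0.21, but its dimmer probe was at 0.24 ± 0.39. The cystine transporter gene SLC7A11, also an ATF4 target, was at -0.85 ± 0.20. In the redox group 9 of 17 (52.9%) were below both controls, where 25.1% of all genes were, and 1, FECH of heme synthesis, was above (0.67 ± 0.23). The group's median of -0.37 was -0.19 without siSOX4 sample 1 and -0.45 without siSOX4 sample 2.

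HMOX1, the heme oxygenase gene repressed by BACH1 and induced by NRF2, read 154 and 404 on the siSOX4 arrays and 174 and 200 on the siControl arrays. Like NQO1 it was lowest in siSOX4 sample 1 and highest in siSOX4 sample 2, at -0.34 and 1.42 log2 units from the control mean. The group difference was 0.54 ± 0.49.

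In the group of metabolic and detoxification enzymes 16 of 24 (66.7%) were below both controls and 3 (12.5%) above, beside 25.1% and 22.7% of all genes. The median was -0.55, or -0.23 without siSOX4 sample 1. AKR1B10 read 95.1 and 130 on the siSOX4 arrays and 467 and 468 on the siControl arrays (-2.81 ± 0.30, limma adjusted p = 0.0675). Its signal in siSOX4 sample 1 was near that array's lowest detected signal of 88.0, and with the authors' processed values the difference was -2.05. AKR1C3 read 2041 and 5429 against 11436 and 11216 (-1.72 ± 0.37), and AKR1C2 differed by -1.98 ± 0.31 on its brightest probe, with its dimmer probes at -0.33 and -0.11. Probes of these reductase families may bind close paralogs, so the member is uncertain. PIR, an iron-dependent nuclear protein, was at -1.14 ± 0.21, and -0.87 on a dimmer probe. ALDH3A1, an aldehyde dehydrogenase, went the other way, with 561 and 700 against 401 and 464 (0.66 ± 0.19). Of the transporters and other targets 9 of 14 (64.3%) were below both controls and 1 (7.14%) above, with a median of -0.23. The channel gene PANX2 (-0.79 ± 0.24), the drug exporter gene ABCC3 (-0.60 ± 0.19) and the lipase-family gene ABHD4 (-0.53 ± 0.26) were lower, and the exporter gene ABCC4 (0.89 ± 0.19) was higher on both siSOX4 arrays than on both controls. In siSOX4 samples 1 and 2 PANX2 was at -1.10 and -0.49 and ABHD4 at -0.87 and -0.18. None of the genes in the group passed the test.

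**Figure D3:**
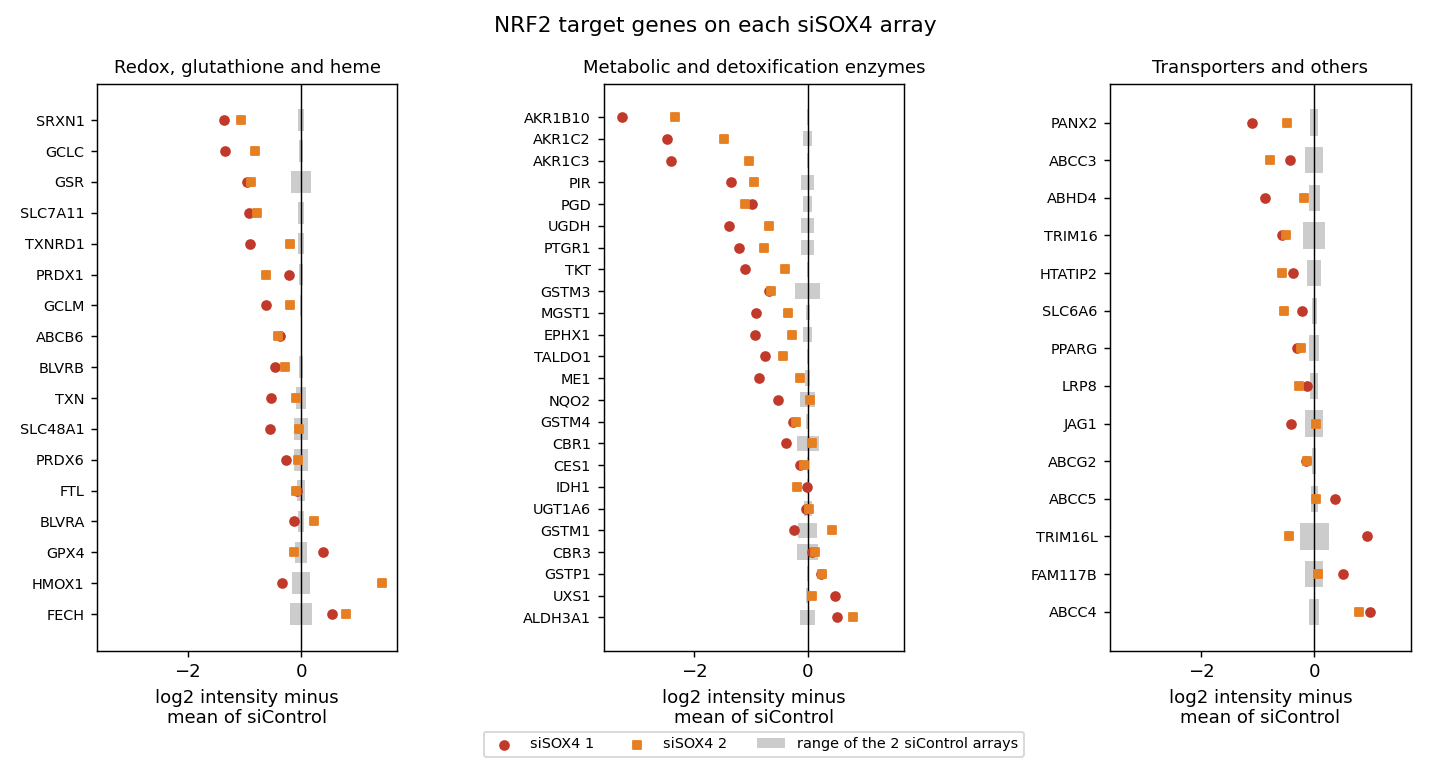
Log2 intensity of the 55 measured NRF2 target genes in siSOX4 samples 1 (circles) and 2 (squares) minus the mean of the siControl arrays, in 3 groups by function, with grey bars for the range of the siControl arrays. In 34 genes both points lie left of the bar, most widely for AKR1B10, and for HMOX1 the points lie on opposite sides, at -0.34 and 1.42.

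Among other proteins that control NRF2 (26 of 29 measured), 8 (30.8%) were below both controls and 4 (15.4%) above, near the 25.1% and 22.7% of all genes, with a median of -0.10. The median was -0.06 without siSOX4 sample 1 and -0.23 without siSOX4 sample 2. RXRA, a nuclear receptor that can bind and restrain NRF2, differed by -0.60 ± 0.15, and the cell cycle inhibitor gene CDKN1A, whose product can shield NRF2 from KEAP1, by -0.60 ± 0.27 with overlapping groups. CAND1, which exchanges the substrate receptors of cullin ligases, was higher on both siSOX4 arrays (0.70 ± 0.19). SYVN1, a ligase of the endoplasmic reticulum that acts on NRF2 and NFE2L1, was at -0.67 ± 0.23, with -0.37 and -0.96 in siSOX4 samples 1 and 2, but its dimmer probe was at -0.16 ± 0.27 and overlapped. No gene in this group passed the test.

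Of 6 genes that process or degrade NFE2L1, 5 were measured, and 4 of these were below both controls, SYVN1 among them, where 25.1% of all genes were. By the median over each gene's probes the count was 2, and no share of all genes is given here for that rule. The median of the 5 genes was -0.43, or -0.28 without siSOX4 sample 1. FBXW7, a ubiquitin ligase receptor for NFE2L1, was at -0.66 ± 0.21 on its brightest probe (-0.42 and -0.89 in siSOX4 samples 1 and 2) and at -0.25 and -0.01 on dimmer ones. NGLY1, which strips sugars from NFE2L1, was at -0.43 ± 0.19 (-0.63 and -0.24), and VCP, which extracts it from the membrane, at -0.37 ± 0.16. Of the proteasome genes that NFE2L1 drives, 29 of 33 were measured, 16 of them (55.2%) below both controls and 4 (13.8%) above, beside 25.1% and 22.7% of all genes, at a median of -0.16 that was -0.08 without siSOX4 sample 1. PSMA1 (-0.49 ± 0.14), PSMB7 (-0.38 ± 0.13) and PSMA3 (-0.36 ± 0.14) were lower and PSMB5 (0.39 ± 0.16) higher on both siSOX4 arrays. No gene of either group passed the test.

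Partners of SQSTM1 in autophagy (14 of 16 measured) had a median of -0.17, with 6 (42.9%) below both controls and 3 (21.4%) above, beside 25.1% and 22.7% of all genes. Without siSOX4 sample 2 the median was -0.30, and without siControl sample 2 it was -0.07. The kinase gene ULK1, which starts autophagosome formation, was at -0.78 ± 0.28 on one probe and -0.79 ± 0.30 on the other. On its brightest probe it was at -1.21 and -0.35 in siSOX4 samples 1 and 2. The cargo receptor genes TAX1BP1 and OPTN were at -0.62 ± 0.15 and -0.49 ± 0.16. GABARAPL1, which tethers cargo receptors to the membrane, was at -0.40 ± 0.21. Reported BACH1 targets (7 of 10 measured) had a median of 0.05. Of these, 0 were below both controls and 1, the hexokinase gene HK2 (0.29 ± 0.19), above, beside 25.1% and 22.7% of all genes. On their brightest probes HMOX1 (0.54 ± 0.49), HMGA2 (0.14 ± 0.23), GAPDH (0.05 ± 0.11) and FTL (-0.08 ± 0.10) overlapped between the groups. The list was not split into genes that BACH1 represses and genes it activates. Opposite shifts could therefore cancel in its median. The sign of this median was not stable: it was -0.01 with median scaling, -0.02 with the authors' processed values and -0.08 with no filter, and leaving out single arrays gave -0.15 (without siSOX4 sample 2) to 0.16 (without siControl sample 2). With single arrays left out, 1 to 3 genes were below the controls. That order is easier to meet with fewer arrays, and its share over all genes was not computed. MMP1 (-0.30 ± 0.39) and the heme transporter gene SLC48A1 (-0.30 ± 0.24) overlapped between the groups on their brightest probes. SLC48A1, HMOX1 and FTL were also measured in the list of NRF2 targets, so these lists are not separate. GAPDH, whose value is the median of the BACH1 targets, was also in the housekeeping list. None of the 4 large MAF genes was kept. No gene in these groups passed the test either.

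**Figure D4:**
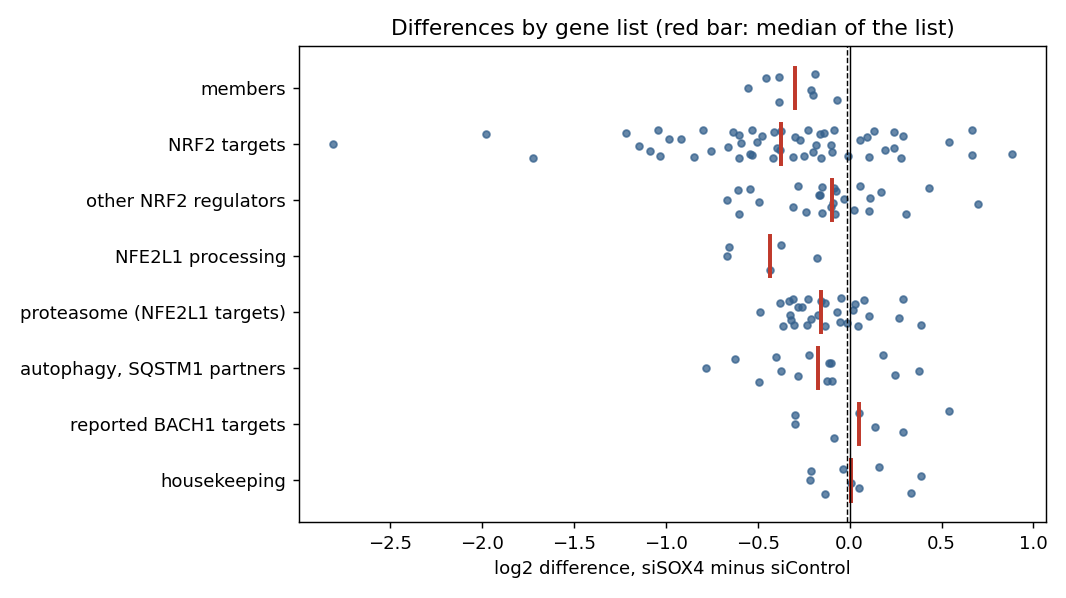
Log2 differences, siSOX4 minus siControl, of single genes (blue points) in each list, with the list's median as a red bar and the median of all genes as a dashed line. Medians run from -0.43 for NFE2L1 processing and -0.37 for NRF2 targets to 0.01 for housekeeping genes and 0.05 for reported BACH1 targets, both of which are below 0 with median scaling. GAPDH is in both of the latter lists, and its value is the median of the BACH1 targets.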

How the data were processed

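Total RNA from 2 siSOX4 and 2 siControl samples was measured on single-colour Illumina arrays. Per the file headers, the authors deposited, probe by probe, 1 intensity and 1 detection p-value per array, and the intensities show no background subtraction or scaling. The deposited series matrix holds each intensity as a ratio to its array's median, and the authors' deposited fold table holds the ratio of mean siControl to mean siSOX4. Recomputing that ratio gave the same value, within a relative tolerance of 1e-06, for 100% of 16367 uniquely matched probes. The scanner's software was not stated by labels or headers.

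Intensities were background-corrected and quantile-normalized to log2 with limma 3.58.1 (neqc, offset 16) in R 4.3.3. Negative-control statistics were inferred from the detection p-values. Probes with a detection p under 0.05 on at least 2 arrays were kept (20118). CUL3 and 1 MAFF probe passed on 3 arrays, and the other kept member probes on all 4. Of 47323 probes, 30113 had 1 symbol in the platform annotation, 8 had several and 17202 were unnamed. Where a gene had several kept probes, the brightest stood for it. The comparison was a two-sided test in limma (lmFit, eBayes with trend), and p-values were adjusted by Benjamini-Hochberg across every kept probe, with a threshold of 0.05. Errors after ± are limma's standard errors. An exact permutation test of 2 against 2 cannot go below p = 0.333 and was not used. The fit was also run on simulated data, and since no outcome is given here, that run lends the results no support.

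Members and lists were chosen with earlier results of these data known. The text names every member and SOX4, the genes of largest absolute difference in each list, the standard readouts HMOX1, GCLM, TXNRD1 and SRXN1, the 3 profiles nearest to NQO1 and to NFE2L2, and markers of the line. FECH and ALDH3A1 were named outside that rule after their values were seen. Alternatives were other background corrections, scalings, filters, the authors' values, a replicate block and leaving out each array.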

Additional observations from a re-analysis of the deposited data

How the results depend on the processing

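The limit of these data is 2 arrays per group and unequal siSOX4 samples. Member genes below both controls numbered 5 in the main analysis and 4 to 7 under the alternatives. The count of 7 arose with a single array left out, where this order is easier to meet. Of 130 recomputed member probe differences, 7 had the opposite sign, all in KEAP1 (1), MAFF (3) and NQO1 (3). All 130 lay within 1 replicate SD of the main value, but many could not have fallen outside it. Leaving out 1 of 2 arrays cannot move a difference beyond that SD, and the filter and block settings leave it unchanged. Genes past the threshold, 0 in the main analysis, numbered 1 with the authors' processed values (AKR1B10) and 77 with no filter on dim probes, and 0 to 2815 when single arrays were left out. For NRF2 targets these counts were 1, 6 and 0 to 29. The targets' median difference was -0.25 without background correction and -0.40 to -0.20 when single arrays were left out. The cause of these differences was not tested. Of 315 values for the other lists and groups, 264 stayed within the replicate SD or within 1.5 times the count and 51 did not. Part of the 264 could not have moved, since the replicate block leaves medians and orders unchanged. The 264 also include changes of sign, as for the median of the reported BACH1 targets. Dim probes such as CUL3 lie close to background, which limits their differences.

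With the replicate number as a block, 133 genes passed the threshold, 9 of them NRF2 targets. Deviations of same-numbered samples from their group means correlated at 0.126 across genes, and with only 2 pairs the samples may share no more than a number.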
